A study of Mus musculus with 2 samples.

Results

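Pi16-low matrix fibroblasts are the stromal cells of mouse epididymal fat that were rich in transcripts of decorin (Dcn), the main small proteoglycan of loose connective tissue, and poor in the genes of interstitial progenitors. They were chosen by their own counts, so the values that chose them are a description and not a result. A barcode with at least 200 genes was a member with at least 10 unique molecular identifiers (UMIs) of Dcn and at most 2 of Pi16, Dpp4 and Sema3c together. It also had at most 1 UMI of the mesothelial genes Upk3b and Msln, fewer than 3 of the endothelial genes Cdh5 and Cldn5, fewer than 5 of the mural genes Rgs5, Kcnj8, Abcc9 and Notch3, and fewer than 10 of the macrophage genes C1qa, C1qb and C1qc. The rule took 405 of 2174 such barcodes. There were 200 of 1057 on low-fat diet (LFD), 18.9% (16.6 to 21.4%), and 205 of 1117 on high-fat diet (HFD), 18.4% (16.1 to 20.7%).

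Fibroblasts of white fat make and turn over the collagen network that surrounds adipocytes, and some of them can take up lipid and become adipocytes. A reserve of progenitors marked by Pi16 and Dpp4 lies in the connective tissue between fat lobules, while Pi16-low fibroblasts lie closer to adipocytes and vessels and include committed preadipocytes and cells that restrain adipogenesis. With long overfeeding, epididymal fat is known for fibrosis, in which collagens, cross-linking enzymes and protease inhibitors build up in the stroma.

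The mice were C57BL/6J males that received LFD or HFD from the age of 6 weeks and were studied after 24 weeks on the diet. The study asked which cells of the stroma differ once epididymal fat has become fibrotic. Each diet gave 1 library of the stromal vascular fraction, made with 10x Chromium 3' v3 chemistry, and the number of mice pooled in a library is not stated in the sources used here. The diets were read from the treatment label of each library, since another label, on the treatment protocol, gives a low fat diet for both. The LFD library held 1113 barcodes and 7356278 UMIs, the HFD library 1144 barcodes and 8412325 UMIs, and 0 barcodes were shared. The members carried 1464258 UMIs on LFD and 1594811 on HFD, with medians of 7919.5 and 7559 UMIs, 2657 and 2547 genes and 4.09 and 4.23% mitochondrial UMIs per cell. With 1 library per diet there is no replicate check and no test between diets, and a difference between the diets cannot be told apart from a difference between the libraries. Levels are in CPM, the usual scaling of the UMIs of a gene to the summed UMIs of the members of a library, and the ranges in parentheses are exact 95% intervals (Poisson for CPM, Clopper-Pearson for shares, conditional binomial for ratios) that cover counting error only.

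The genes that mark the class were present in both libraries. Dcn stood at 25061 CPM on LFD and 19180.3 CPM on HFD (ENSMUSG00000019929, chromosome 10, 97479609 to 97518143 on GRCm38, as are all coordinates here). Pdgfra, the PDGF receptor of adipose progenitors, had 464 and 320.4 CPM against 0.673 and 0.342 CPM in macrophages, the class used here as the background of free RNA. Gpx3, a secreted glutathione peroxidase, had 989.6 and 864 CPM. Smoc2, a calcium-binding matrix protein, had 590.1 and 700.4 CPM, and Dpep1, a membrane dipeptidase, had 1171 and 964 CPM. Dcn was part of the rule, and among the other 4 genes the lowest share of members with a UMI was 80.5%, for Smoc2 on LFD. Pi16-high cells, which met the same rule except for 3 or more UMIs of Pi16, Dpp4 and Sema3c, numbered 148 on LFD and 72 on HFD. They had less Gpx3 (274 and 237 CPM), Smoc2 (212 and 259 CPM) and Dpep1 (674 and 524 CPM).

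Few cells lay at the Dcn threshold, and more at that of the progenitor genes. With 10 to 12 Dcn UMIs there were 3 LFD and 1 HFD members, and with 7 to 9 there were 2 LFD and 4 HFD barcodes that met every other condition. At least 50 Dcn UMIs were found in 172 LFD and 192 HFD members, and the median was 192 and 144. Progenitor UMIs numbered 0 in 123 LFD and 140 HFD members, 1 in 42 and 47, and 2 in 35 and 18. Just outside, with 3 such UMIs, lay 13 LFD and 11 HFD cells. The line between members and Pi16-high cells thus passes through a range of low counts and not through a gap. Possible doublets were not removed. The doublet score of Scrublet was above its limit for 20 LFD and 26 HFD barcodes, among them 1 LFD member and 0 HFD members.

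Markers of other cell types were low but not all alike on both diets. The rule itself limited Cdh5, Cldn5, Rgs5, Kcnj8, Abcc9, Notch3, Upk3b, Msln, C1qa, C1qb and C1qc. The low sums of the endothelial, mural, mesothelial and macrophage lists were thus in part set in advance. The endothelial list (8 genes) summed to 12.3 and 20.7 CPM on LFD and HFD, with Cldn5 the most abundant, and the T and NK list (6 genes) to 0.683 and 1.88 CPM, with Klrb1c leading and Cd3d, Cd3e, Cd3g and Nkg7 at 0. The mural list (6 genes) had 10.9 and 27.0 CPM, led by Notch3, and the Schwann list (4 genes) 4.78 and 3.14 CPM, led by S100b with Sox10 at 0. Of the mesothelial list (6 genes, 163 and 149 CPM) nearly all UMIs were Wt1, a gene that fibroblasts of visceral fat also express, while Msln and Lrrn4 were at 0. The adipocyte list (6 genes) had 31.4 and 5.02 CPM, led by Car3 with Lep at 0. The macrophage list (8 genes) went from 123 to 40.8 CPM, with Lyz2 the most abundant and Adgre1 at 0. The list of dendritic and B cells (7 genes) went from 124 to 17.6 CPM, with Cd74 the most abundant and Flt3, Cd79b and Ms4a1 at 0. The part of these transcripts in the differences between diets was not tested, apart from the values without single cells given with the immune genes.

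The comparison of members with Pi16-high cells is a description only, as the rule used the same counts. Of 7935 genes with at least 50 UMIs in both classes together, 300 were at least 2-fold higher and 283 at least 2-fold lower in the members. The genes named are the 10 highest and 10 lowest ratios after 20 CPM were added to each level. Apoe, the lipid-carrying apolipoprotein, had 1449 CPM against 112 CPM in Pi16-high cells. Agt, the precursor of angiotensin, had 201 CPM against 4.99 CPM, and transferrin (Trf), the plasma iron carrier, had 549.5 CPM against 53.4 CPM. The fatty acid-binding protein gene Fabp4 had 853 CPM against 106 CPM, and G0s2, an inhibitor of adipose triglyceride lipase, had 339 CPM against 62.8 CPM. Among signals, the peptide gene Nmb had 184 CPM against 19.9 CPM, the chemokine Cxcl14 111 CPM against 6.48 CPM and the growth factor Igf1 643 CPM against 142 CPM. Steap4, a metalloreductase, and Vtn, the adhesive protein vitronectin, completed the 10 highest ratios.

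Among the 10 lowest ratios against Pi16-high cells, Cd55, which protects cells from complement, had 81.7 CPM against 949.6 CPM. Nov, a matricellular protein of the CCN family, had 9.15 CPM against 223 CPM, and Igfbp5, an IGF-binding protein, had 34.0 CPM against 326 CPM. The secreted Wnt antagonists Sfrp2 (18.6 CPM against 157 CPM) and Sfrp4 (19.9 CPM against 209 CPM) and the signalling adaptor Dact2 (0.654 CPM against 78.3 CPM) were low as well. Col14a1, a collagen that binds to fibril surfaces, had 149.7 CPM against 816 CPM. Sbsn, Efhd1 and Limch1 made up the rest.

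Clustering the members with both libraries integrated gave 3 clusters of 166, 158 and 81 cells, each with cells of both diets (80 and 86, 82 and 76, and 38 and 43 on LFD and HFD). Leading genes come from the very counts that formed a cluster, so they describe it and are no test, and no cluster received a cell type name. The largest was led by C7, a component of the membrane attack complex of complement, with 723 CPM against 119 CPM in the other members, and by Apoe with 3128 CPM against 616 CPM. Its other leading genes were Agt, Igf1, Itm2a, Tgfbi, Trf, Txnip, Gas6 and Vegfc. Igf1, which drives growth and survival of neighbouring cells, had 1309 CPM against 313 CPM, and Vegfc, the growth factor of lymphatic vessels, had 89.8 CPM against 22.0 CPM. These cells were also the shallowest, with a median of 6529 UMIs against 8176.5 and 8590 in the other clusters.

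The next cluster was led by Ptgs2, Il6 and Has1. Ptgs2, the inducible cyclooxygenase, had 640.1 CPM against 77.5 CPM in the other members, and Il6 had 609 CPM against 132 CPM. Has1, a hyaluronan synthase, had 953 CPM against 291 CPM, and Ugdh, which makes its precursor UDP-glucuronate, had 1060.2 CPM against 332 CPM. The pentraxin Ptx3, the protease Adamts4, the AP-1 gene Fosl2, the retinol dehydrogenase Rdh10 and the sugar metabolism genes Gfpt2 and Hk2 were the others. Immediate early genes, which respond within minutes to handling and enzymatic dissociation of tissue, took 3.14% of UMIs there, against 2.51% in each of the other clusters, and their part in this cluster was not tested.

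The smallest cluster was led by Timp1, Postn and Tpm2, and collagens took 2.95% of its UMIs, against 1.70 and 1.71% in the others. Timp1 had 586 CPM against 120.3 CPM, Postn 548 CPM against 141 CPM and Tpm2 147 CPM against 31.5 CPM. The transcription factor Meox1, the surface protein Thy1, the proteoglycan Aspn and the lamin gene Lmna were also among the 10, with Basp1, Plvap and Lrrc32. The separation was not the same on both diets, with Timp1 at 75.7 against 34.9 CPM on LFD and 916 against 208 CPM on HFD, and Tpm2 at 27.5 against 20.5 CPM on LFD and 224 against 42.8 CPM on HFD. Since these genes themselves differed between diets, the cluster sizes are not compared. The number of clusters depended on the settings, with 1 cluster at resolution 0.4 and 11 at 1.5 against 3 at 0.9. Without the single member that Scrublet marked there were 2 clusters, so the split into 3 is not firm.

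Between the diets, 100 of 6379 genes with at least 50 UMIs in the members were at least 2-fold higher on HFD (1.57%) and 127 at least 2-fold lower (1.99%), and for each of these 227 genes the interval of the ratio left out 1. The word rose or fell is used below for genes past this limit. Of all 6379 genes, 49.1% had a ratio over 1, and their median log2 ratio was -0.01. In Pi16-high cells of the same libraries, 84 of the 100 had a ratio over 1 and 35 were at least 2-fold higher, while 104 of the 127 had a ratio under 1 and 39 were at least 2-fold lower. Of all tested genes, 50.7% were over 1 in Pi16-high cells, 2.07% were at least 2-fold higher and 3.28% at least 2-fold lower there. The libraries are the same for both classes, so this overlap is no independent check. With DESeq2 size factors the counts were 123 higher and 110 lower, so which side held more genes depended on the scaling.

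**Figure D1:**
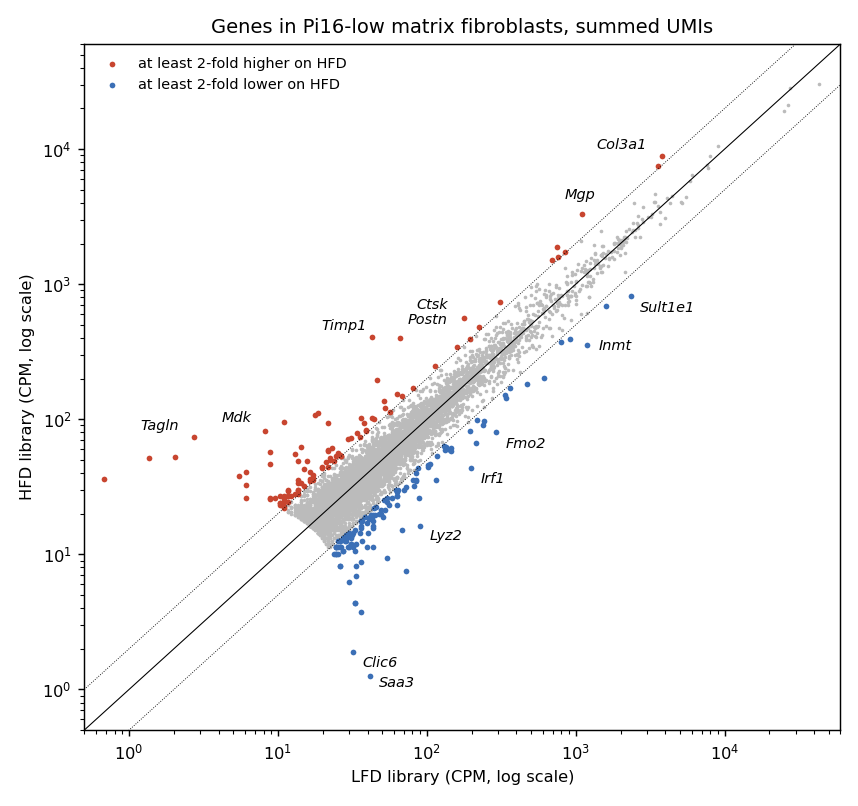
Level of each gene in Pi16-low matrix fibroblasts, as CPM of summed UMIs in the LFD library (x axis, log scale) and the HFD library (y axis, log scale). Points in red and blue are the 100 and 127 genes at least 2-fold higher or lower on HFD among 6379 genes, dotted lines mark a 2-fold difference, and genes at 0 in a library cannot be drawn on a log scale.

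Of the 20 most abundant genes, Col3a1 and Sparc rose and 0 fell. Gsn, the actin-severing protein gelsolin, had 27452 CPM on LFD and 28534 CPM on HFD, and the translation genes Tpt1 and Eef1a1, the ferritin chains Fth1 and Ftl1 and Actb had ratios between 0.937 and 1.07. Vim, the intermediate filament of mesenchymal cells, had a ratio of 1.19 (1.14 to 1.23). S100a6, Tmsb4x and the nuclear RNA Malat1 had ratios of 0.811, 0.796 and 0.804. The most abundant of all, Gm42418, overlaps a ribosomal RNA repeat and had 42786 CPM on LFD and 30088 CPM on HFD (ratio 0.703, 0.695 to 0.712). It was also lower in macrophages on HFD (53824 and 25229 CPM), and the part of this transcript in the scale of other genes was not tested.

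Collagen genes took more of the transcripts on HFD. The 26 collagen genes looked at had 1.38% (1.36 to 1.40%) of UMIs on LFD and 2.58% (2.55 to 2.60%) on HFD. In Pi16-high cells of the same libraries the shares were 0.956 and 1.97%, so the shift was not particular to the members. Of the 20 with enough UMIs in the members, 17 had a ratio over 1, 3 rose and 1 fell, and their median log2 ratio was 0.74. The fibrillar group, whose chains assemble into banded fibres, had 0.855% of UMIs on LFD and 1.68% on HFD, and all of its 6 measured genes were over 1. Col3a1, the chain of type III collagen, rose from 3781 to 8836 CPM (ratio 2.34, 2.27 to 2.41; ENSMUSG00000026043, chromosome 1, 45311538 to 45349706). For the chains of type I collagen the levels were 1084 CPM on LFD and 2099.9 CPM on HFD for Col1a1 (ratio 1.94, 1.82 to 2.06), and the ratio of Col1a2 was 1.61 (1.55 to 1.68). Col5a1, Col5a2 and Col5a3, minor chains that set fibre width, had ratios of 1.29, 1.74 and 1.59.

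Non-fibrillar collagens went up as a group, with 0.529% of UMIs on LFD and 0.896% on HFD, but not gene by gene. Col6a1, of the beaded filaments around adipocytes, rose from 848 to 1741 CPM (ratio 2.05, 1.92 to 2.20), with Col6a2, Col6a3 and Col6a5 at 1.80, 1.90 and 1.72. The widespread basement membrane chains Col4a1 and Col4a2 had ratios of 1.69 (1.60 to 1.78) and 1.83 (1.68 to 1.99). By contrast Col4a4, a chain of a separate type IV network, fell from 82.0 to 32.0 CPM (ratio 0.390, 0.276 to 0.546), and Col4a5 and Col6a6 had ratios of 0.719 (0.567 to 0.910) and 0.799 (0.671 to 0.950). Col8a1, a short network-forming collagen, rose from 3 UMIs in 3 cells to 84 UMIs in 21 cells (ratio 25.7, 8.50 to 127). Of its HFD UMIs, 52.4% lay in 3 cells.

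The list of collagen assembly held 19 genes that bind, process or cross-link collagen. It had 0.697% (0.684 to 0.711%) of UMIs on LFD and 1.24% (1.22 to 1.25%) on HFD, with 16 over 1, 2 risen, 0 fallen and a median log2 ratio of 0.57. Sparc, a collagen-binding glycoprotein, rose from 3566 to 7525 CPM (ratio 2.11, 2.04 to 2.18; ENSMUSG00000018593, chromosome 11, 55394500 to 55423183), and gave 5221 of the 10206 LFD UMIs and 12001 of the 19739 HFD UMIs of the list. Pcolce, which speeds removal of the procollagen C-propeptide, rose from 311 to 742 CPM (ratio 2.39, 2.14 to 2.67), while its relative Pcolce2 had 449 CPM on LFD and 315 CPM on HFD (ratio 0.700, 0.622 to 0.788). The collagen chaperone Serpinh1 had a ratio of 1.56 (1.45 to 1.67). Among cross-linking enzymes, of which 0 passed 2-fold, lysyl oxidases Lox, Loxl1 and Loxl2 had ratios of 1.35, 1.49 and 1.51, and Loxl3 one of 0.612. The lysyl hydroxylases Plod1 and Plod2 had 1.91 and 1.63, and Plod3 had 0.902.

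The shift in collagens was spread over cells. The median member gave collagens 1.21% (quartiles 0.865 and 1.67%) of its UMIs on LFD and 2.10% (quartiles 1.5005 and 3.16%) on HFD. For the assembly genes the medians were 0.592% (quartiles 0.455 and 0.832%) and 1.03% (quartiles 0.782 and 1.46%). The lower quartile on HFD lay above the median on LFD in both lists.

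**Figure D2:**
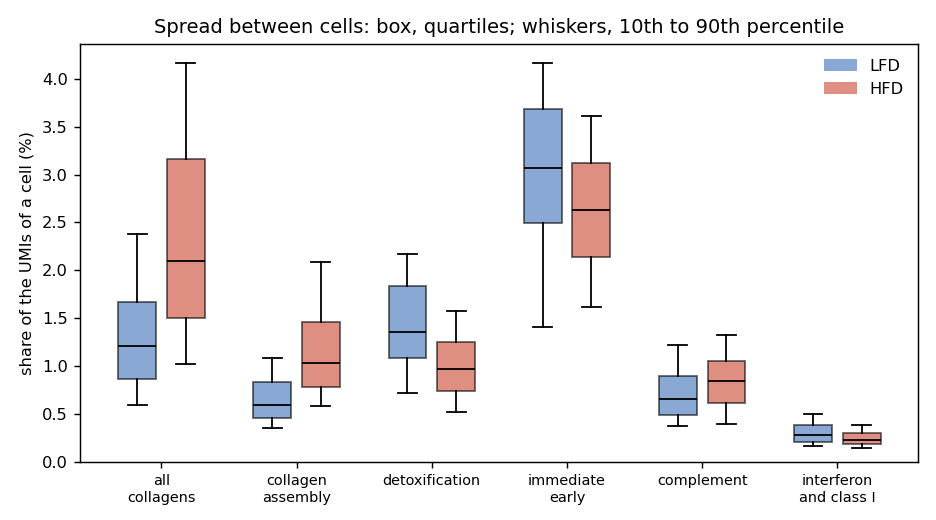
Share of the UMIs of a cell (y axis, %) taken by each of 6 gene lists in 200 LFD (blue) and 205 HFD (red) Pi16-low matrix fibroblasts. Boxes are quartiles with the median as a line, and whiskers reach from the 10th to the 90th percentile of cells, which are not replicates of a diet. The boxes of both collagen lists sit higher on HFD, and that of detoxification genes sits lower.

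The proteoglycan list had 0.468% of UMIs on LFD and 0.627% on HFD, with 7 of 13 measured genes over 1, 2 risen and 1 fallen (median log2 ratio 0.05). The risen genes were a pair of small leucine-rich proteoglycans that bind collagen fibres, Lum, which rose from 746 to 1876 CPM (ratio 2.51, 2.34 to 2.70), and Bgn, which rose from 693 to 1517 CPM (ratio 2.19, 2.03 to 2.36). Ogn, of the same family, had 1233 CPM on LFD and 808 CPM on HFD (ratio 0.655, 0.610 to 0.704). Gpc3, a heparan sulfate proteoglycan of the cell surface, fell from 238 to 90.3 CPM (ratio 0.380, 0.311 to 0.463). For the large proteoglycan Vcan and for Prelp the intervals of the ratio held 1, at 0.941 (0.823 to 1.08) and 0.965 (0.849 to 1.10).

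Elastic fibre genes had 0.406% of UMIs on LFD and 0.475% on HFD, with 7 of 13 over 1, 0 past 2-fold and a median log2 ratio of 0.07. Mfap2, a microfibril protein, came nearest at 1.998 (1.57 to 2.55), with a log2 ratio of 0.15 under the filter of the study, at most 2500 genes and under 5% mitochondrial UMIs. The fibulin Fbln2 had 1.62 (1.48 to 1.76) and Fbn1, the fibrillin that forms the microfibril, had 1.32 (1.21 to 1.44). Elastin itself (Eln) had a ratio of 0.957 (0.780 to 1.17), and Efemp1 and Emilin2 had 0.749 (0.674 to 0.832) and 0.664 (0.545 to 0.807).

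Matricellular and adhesive glycoproteins had 0.945% of UMIs on LFD and 1.25% on HFD, with 14 of 24 over 1, 3 risen, 1 fallen and a median log2 ratio of 0.04. Mgp, matrix Gla protein, which blocks calcification of matrix, rose from 1108 to 3329 CPM (ratio 3.003, 2.84 to 3.18). Periostin (Postn; ENSMUSG00000027750, chromosome 3, 54361109 to 54391037), which binds collagen and is made in remodelling tissue, rose from 66.2 to 398 CPM (ratio 6.01, 4.85 to 7.52). After each cell was thinned to 2000 UMIs, which kept 183 LFD and 199 HFD members, Postn was detected in 8.20 and 36.2% of them, against 0.463 and 0.321% of macrophages (median depths before thinning 6328 and 6915 UMIs). Without thinning it was found in 35 LFD and 114 HFD members, or 17.5 and 55.6%. Pi16-high cells had 221 and 853 CPM of Postn, and after thinning it was detected in 22.2 and 64.8% of them. Under the filter of the study (at most 2500 genes and under 5% mitochondrial UMIs), which left 52 and 74 members, the log2 ratio of Postn was -0.17 in place of 2.59, and that of Mgp 0.92 in place of 1.59. The cause was not tested.

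Other genes of this group moved less or from few UMIs. Ctgf, a target of TGF-beta and YAP signalling, rose from 13 to 41 UMIs (ratio 2.90, 1.52 to 5.89), and Wisp2, of the same family, fell from 43 to 22 UMIs (ratio 0.470, 0.268 to 0.803). Tenascin C (Tnc) had 0 UMIs on LFD and 40 on HFD in 7 cells. The thrombospondins Thbs1 and Thbs2 had ratios of 1.65 (1.51 to 1.81) and 1.88 (1.27 to 2.82). Fibronectin (Fn1) had 1355 CPM on LFD and 1482 CPM on HFD, and laminin chains Lama2, Lama4, Lamb1 and Lamc1, which anchor cells to basement membrane, had ratios of 0.997, 0.707, 0.930 and 0.856.

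Proteases and their inhibitors included Timp1, with 1 of the 15 highest ratios. The list had 1.15% of UMIs on LFD and 1.30% on HFD, with 14 of 20 over 1, 3 risen, 1 fallen and a median log2 ratio of 0.40. Timp1 (ENSMUSG00000001131, chromosome X, 20870166 to 20874735), a secreted inhibitor of metalloproteinases, rose from 43.0 to 408 CPM (ratio 9.47, 7.31 to 12.5). After thinning it was found in 8.20 and 30.2% of members and 0 and 0.641% of macrophages. Before thinning there were 35 LFD and 116 HFD cells with a UMI (17.5 and 56.6%). Pi16-high cells had 19.5 and 209.8 CPM. The log2 ratio of 3.24 came to 1.15 under the filter of the study and to 2.39 when CPM was averaged over cells. Timp3, an inhibitor that stays bound to the matrix, went the other way and fell from 608 to 203 CPM (ratio 0.333, 0.292 to 0.378), and Timp2 had a ratio of 0.933 (0.888 to 0.981).

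Of the proteases, Ctsk, the cathepsin that degrades fibrillar collagen, rose from 177 to 559 CPM (ratio 3.16, 2.75 to 3.65). The gelatinase Mmp2 and its membrane activator Mmp14 had ratios of 1.63 (1.44 to 1.84) and 1.60 (1.39 to 1.86). Mmp3, stromelysin, rose from 18.4 to 111 CPM (ratio 6.02, 3.9997 to 9.39), from 4 to 29 cells with a UMI. On LFD, 92.6% of Mmp3 UMIs lay in 3 cells, and without the 3 cells richest in it in each library, an alternative chosen after seeing the data, its log2 ratio was 5.91 in place of 2.59. Adamts5, an aggrecanase, had 1235 CPM on LFD and 803 CPM on HFD (ratio 0.650, 0.605 to 0.699). The secreted serpin Serpinf1 had a ratio of 1.38 (1.29 to 1.47).

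Contractile genes were scarce, with 0.0281% (0.0255 to 0.0310%) of UMIs on LFD and 0.0497% (0.0463 to 0.0532%) on HFD. Most HFD UMIs of Acta2 and Tagln lay in 3 cells. Of 7 measured genes 5 were over 1, 3 rose and 1 fell. Tpm2, beta-tropomyosin, rose from 21.9 to 94.1 CPM (ratio 4.30, 2.92 to 6.52), in 24 LFD and 52 HFD cells. Acta2, smooth muscle actin, rose from 2 UMIs to 82 (ratio 37.6, 10.1 to 316), and 85.4% of the HFD UMIs lay in 3 cells. Tagln, an actin-binding protein of smooth muscle, rose from 4 UMIs to 117 (ratio 26.9, 10.2 to 100.2), with 76.9% of the HFD UMIs in 3 cells. Without the 3 cells richest in Tagln in each library its ratio was 24.8. That value rests on almost no LFD UMIs, since 75% of the 4 also lay in 3 cells. Averaged over cells, the log2 ratios of Acta2 and Tagln were 2.45 and 3.64 in place of 5.23 and 4.75. Lmod1, another muscle gene, fell from 47 to 18 UMIs (ratio 0.352, 0.192 to 0.617). The mural list moved with these genes, at 10.9 and 27.0 CPM on LFD and HFD. Notch3, which the rule limited, was its most abundant gene, and the part of this list in the contractile genes was not tested.

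The HFD UMIs of Mki67 and Ube2c lay in very few cells. Mki67, which marks cycling cells, had 0 UMIs on LFD and 50 in 7 cells on HFD. Against a floor of 3 UMIs for the LFD library it was 15.3-fold higher, and the exact lower limit of the ratio was 11.99. Of these 50, 92.0% lay in 3 cells. Ube2c, the ubiquitin-conjugating enzyme that works with the anaphase-promoting complex, had 1 UMI on LFD and 58 on HFD, all 58 in a single cell. Stmn1, a regulator of microtubules in dividing and other cells, rose from 5.46 to 38.2 CPM (ratio 7.001, 3.34 to 16.9), in 7 LFD and 16 HFD cells, with 63.9% of its HFD UMIs in 3 cells. Its log2 ratio was -0.26 under the filter of the study. Cell cycle and arrest genes as a list had 0.182% of UMIs on LFD and 0.187% on HFD, with 7 of 12 over 1, 2 risen and 0 fallen. Cdkn2c, an inhibitor of the kinases that start the cycle, rose from 23.9 to 48.9 CPM (ratio 2.05, 1.36 to 3.14), while the inhibitors Cdkn1a and Cdkn1c had ratios of 0.716 (0.625 to 0.819) and 0.589 (0.475 to 0.729).

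Detoxification and antioxidant genes were listed with earlier results of these data known, so the direction of the list is a description. They had 1.48% (1.46 to 1.498%) of UMIs on LFD and 0.966% (0.951 to 0.982%) on HFD, with 8 of 31 measured genes fallen, 0 risen, 7 over 1 and a median log2 ratio of -0.38. Sult1e1 (ENSMUSG00000029272, chromosome 5, 87575969 to 87591594), the sulfotransferase that inactivates oestrogens, fell from 2362 to 818 CPM (ratio 0.346, 0.325 to 0.369). It was detected in 173 LFD and 126 HFD cells, and after thinning in 78.7 and 47.7%. Inmt, which methylates indoles and other amines, fell from 1196 to 355 CPM (ratio 0.297, 0.269 to 0.326), and its thinned shares were 71.0 and 34.7%. In macrophages the Sult1e1 and Inmt levels were 3.36 and 0.683 CPM and 2.02 and 0.342 CPM, with thinned shares of 0.926 and 0% and 0.463 and 0%. Under the filter of the study the log2 ratio of Sult1e1 was -0.94 in place of -1.53.

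Conjugating enzymes of the glutathione S-transferase family were among the fallen genes. Gstm1 fell from 1589 to 689.7 CPM (ratio 0.434, 0.404 to 0.467) and Gstm5 from 335 to 152 CPM (ratio 0.453, 0.387 to 0.530), while Gstm2 had 0.868 (0.745 to 1.01). These neighbours are similar in sequence, so the split of reads between them is uncertain. Gsta3 fell from 88.8 to 26.3 CPM (ratio 0.297, 0.204 to 0.423), to -0.36 on the log2 scale under the filter of the study in place of -1.75. The microsomal epoxide hydrolase Ephx1 (ratio 0.454, 0.312 to 0.653), the fatty aldehyde dehydrogenase Aldh3a2 (ratio 0.480, 0.277 to 0.812) and the aldehyde oxidase Aox1 (ratio 0.408, 0.211 to 0.754) fell as well. The metal-binding metallothioneins Mt1 and Mt2 had ratios of 0.774 (0.745 to 0.804) and 0.768 (0.711 to 0.829). Mgst1 and Gstt1 had ratios of 0.998 (0.916 to 1.09) and 1.02 (0.860 to 1.21), with 1 inside the interval, and so the list was not lower as a block.

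**Figure D3:**
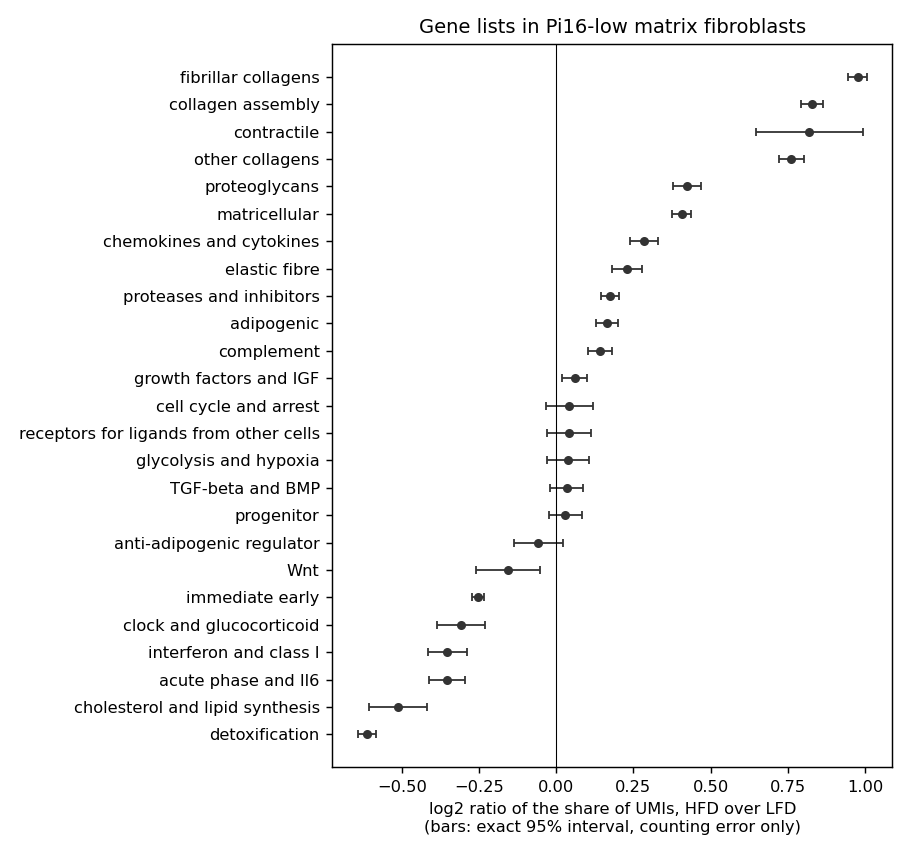
Log2 ratio of the share of UMIs, HFD over LFD (x axis), for each gene list other than cell type markers (y axis) in Pi16-low matrix fibroblasts. Points are ratios of summed UMIs of 1 library per diet and bars are exact 95% intervals for counting error only. Collagens, collagen assembly and contractile genes lie highest, and detoxification genes lowest.

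Genes of the adipocyte lineage did not move together. The adipogenic list had 0.760% of UMIs on LFD and 0.852% on HFD, with 9 of 14 over 1, 1 risen, 1 fallen and a median log2 ratio of 0.11. Lpl, the lipase that frees fatty acids from lipoproteins, rose from 757 to 1601 CPM (ratio 2.12, 1.97 to 2.27). Plin2, a coat protein of lipid droplets, had a ratio of 1.86 (1.55 to 2.24), and Angptl4, an inhibitor of Lpl, had 1.77 (1.51 to 2.08). The adipogenic transcription factors Pparg, Cebpa and Cebpb had ratios of 1.08 (0.595 to 1.97), 1.33 (0.791 to 2.25) and 1.25 (1.17 to 1.34). Igf1, which promotes adipocyte differentiation, fell from 916 to 393 CPM (ratio 0.429, 0.390 to 0.472; ENSMUSG00000020053, chromosome 10, 87858265 to 87937042). The committed preadipocyte markers (7 genes, Lpl most abundant, Dlk1 at 0) summed to 2041 and 2964 CPM. Of the 5 measured, 3 were over 1, only Lpl rose and 0 fell, with a median log2 ratio of 0.11. Fabp4 had 880 CPM on LFD and 828 CPM on HFD, so the sum reflects Lpl more than the list as a whole.

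Genes listed as markers of adipogenesis regulators also split. The list had 0.176% of UMIs on LFD and 0.169% on HFD, with 4 of 8 over 1, 1 risen and 3 fallen (median log2 ratio 0.05). Fmo2, a flavin monooxygenase, fell from 292 to 80.9 CPM (ratio 0.277, 0.225 to 0.338), Gdf10, a ligand related to the BMPs, fell from 363 to 169.9 CPM (ratio 0.468, 0.403 to 0.542), and Vit, the matrix protein vitrin, fell from 143 to 58.9 CPM (ratio 0.413, 0.320 to 0.529). Clec11a, a secreted lectin, rose from 15 to 38 UMIs (ratio 2.33, 1.25 to 4.55), Cygb, a globin of fibroblasts, had 543 CPM on LFD and 897 CPM on HFD (ratio 1.65, 1.51 to 1.80), and F3, tissue factor, had a ratio of 1.49 (1.26 to 1.77). The 6 markers of the adipogenesis-regulating state summed to 1580.3 and 1584 CPM, with Cygb the most abundant. Its sum was thus level while its genes were not.

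Progenitor surface genes had 0.356% of UMIs on LFD and 0.364% on HFD, with 5 of 13 over 1, 2 risen, 1 fallen and a median log2 ratio of -0.07. Cd44, the hyaluronan and osteopontin receptor, rose from 43.0 to 102 CPM (ratio 2.36, 1.75 to 3.21), and Thy1, a surface glycoprotein of fibroblasts, rose from 38.9 to 81.5 CPM (ratio 2.09, 1.52 to 2.91). Tek, the angiopoietin receptor, fell from 62.8 to 27.0 CPM (ratio 0.429, 0.292 to 0.623). Pdgfra and Pdgfrb lay on opposite sides of 1, at 0.691 (0.615 to 0.776) and 1.26 (1.05 to 1.52), as did Cd34 at 0.705 (0.629 to 0.789) and Ly6a at 1.28 (1.20 to 1.36). Markers of the Pi16 interstitial progenitor, without the genes of the rule, summed to 298 and 242 CPM, most of it Anxa3, and those of fibroinflammatory cells (6 genes, Cd9 most abundant) to 1479 and 1695 CPM.

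Receptors for ligands of other cells were level as a list, at 0.211% of UMIs on LFD and 0.217% on HFD, with 9 of 18 over 1 and Cd44 the only one past 2-fold. Tgfbr2 had a ratio of 1.21 (1.05 to 1.40) and Tgfbr3, the co-receptor betaglycan, one of 0.650 (0.564 to 0.750). The TNF receptor Tnfrsf1a had 1.34 (1.15 to 1.56), and the integrin chains Itgav, Itgb1 and Itgb5, which bind vitronectin, fibronectin and osteopontin, had 0.937, 1.04 and 0.898. TGF-beta and BMP genes had 0.368% of UMIs on LFD and 0.376% on HFD, with 10 of 18 over 1 and 0 past 2-fold. The ligands Tgfb1 and Tgfb2 had ratios of 0.846 (0.519 to 1.38) and 0.746 (0.546 to 1.02), and the inhibin chain Inhbb had 0.505 (0.320 to 0.785). For Tgfb1 and Tgfb2 the intervals held 1.

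Secreted growth factors and IGF-binding proteins held large ratios in both directions around a level sum, with 0.626% of UMIs on LFD and 0.653% on HFD, 8 of 17 over 1, 2 risen, 3 fallen and a median log2 ratio of -0.17. Midkine (Mdk), a heparin-binding growth factor, rose from 8.20 to 81.5 CPM (ratio 9.95, 5.50 to 19.7), in 11 LFD and 55 HFD cells, with a log2 ratio of 3.31 that came to 1.69 under the filter of the study. Beside Igf1, Vegfc fell from 63.5 to 27.0 CPM (ratio 0.425, 0.289 to 0.616). Igfbp3 fell from 64 to 18 UMIs (ratio 0.258, 0.144 to 0.441) and Igfbp5 rose from 13 to 91 (ratio 6.43, 3.58 to 12.5). Igfbp5 is a gene of Pi16-high cells, where it had 318 and 341 CPM, and 62.6% of its HFD UMIs in members lay in 3 cells. When CPM was averaged over cells its log2 ratio was 0.85 in place of 2.68, and among members with 0 progenitor UMIs it was 4.44. Without the 3 cells richest in Igfbp5 in each library its ratio was 7.80, from few LFD UMIs, as 69.2% of the 13 also lay in 3 cells. Igfbp7, the most abundant binding protein, had 2823 CPM on LFD and 3705 CPM on HFD.

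Wnt genes had 0.106% of UMIs on LFD and 0.0951% on HFD, with 4 of 10 over 1, 1 risen and 1 fallen. Wnt5a, a ligand of non-canonical signalling that restrains adipogenesis, fell from 72.4 to 31.4 CPM (ratio 0.433, 0.303 to 0.612), and the R-spondins Rspo1 and Rspo3, which amplify Wnt signals, had ratios of 0.549 (0.3996 to 0.750) and 0.512 (0.313 to 0.822). Sfrp4 rose from 9 to 52 UMIs (ratio 5.30, 2.59 to 12.2), with 82.7% of the HFD UMIs in 3 cells. Pi16-high cells had 159.8 and 308 CPM of it, and among members with 0 progenitor UMIs its log2 ratio was -1.35 in place of 2.41.

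Complement genes had 0.712% (0.698 to 0.725%) of UMIs on LFD and 0.785% (0.771 to 0.799%) on HFD, with 6 of 9 over 1, 1 risen, 1 fallen and a median log2 ratio of 0.13. C3, the central component, had 3374 CPM on LFD and 4065 CPM on HFD (ratio 1.20, 1.16 to 1.25). C4b, of the classical pathway, rose from 113 to 249 CPM (ratio 2.20, 1.83 to 2.65). C7, which also led the largest cluster, fell from 469.9 to 181 CPM (ratio 0.386, 0.335 to 0.443). Serping1, the inhibitor of C1, had a ratio of 1.11 (1.05 to 1.16).

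Acute phase and Il6 pathway genes had 0.340% of UMIs on LFD and 0.266% on HFD, with 3 of 10 over 1, 0 risen and 1 fallen. Socs3, the feedback inhibitor of Il6 signalling, had 927 CPM on LFD and 547 CPM on HFD (ratio 0.591, 0.542 to 0.644), ceruloplasmin (Cp) had a ratio of 0.622 (0.567 to 0.682) and Il6 itself 0.890 (0.786 to 1.01). Saa3, an acute phase apolipoprotein, fell from 61 UMIs in 5 cells to 2 UMIs in 1 cell (ratio 0.0301, 0.00357 to 0.114), with 91.8% of its LFD UMIs in 3 cells. Hp, haptoglobin, had a ratio of 0.915 (0.830 to 1.01), and the pentraxin Ptx3 one of 1.499 (1.25 to 1.80). Under the filter of the study the log2 ratio of Hp was -1.70 in place of -0.13.

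Chemokines and cytokines had 0.465% of UMIs on LFD and 0.567% on HFD, with 12 of 17 over 1, 2 risen, 3 fallen and a median log2 ratio of 0.24. Cxcl14, a chemokine of fibroblasts and epithelia, rose from 63.5 to 155 CPM (ratio 2.44, 1.91 to 3.13), and Cxcl12, the ligand of Cxcr4, had 214 CPM on LFD and 413 CPM on HFD (ratio 1.92, 1.68 to 2.21). The monocyte attractants Ccl2 and Ccl7 had ratios of 1.60 (1.42 to 1.79) and 1.68 (1.48 to 1.90), and under the filter of the study the log2 ratio of Ccl2 was -0.84 in place of 0.67. Ccl11, eotaxin, had 1505 CPM on LFD and 1659 CPM on HFD. The interferon-induced Cxcl9 and Cxcl10 fell from 48 to 7 UMIs (ratio 0.134, 0.0511 to 0.298) and from 64 to 31 UMIs (ratio 0.445, 0.280 to 0.693), and without the 3 cells richest in each the log2 ratio of Cxcl9 was -0.12 and that of Cxcl10 -1.79.

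A pair of genes in the highest 15 are better known from macrophages. Ccl8, a chemokine, rose from 9 UMIs in 6 cells to 65 in 31 cells (ratio 6.63, 3.29 to 15.1), and Lgmn, the lysosomal endopeptidase legumain, rose from 26 UMIs in 23 cells to 171 in 98 cells (ratio 6.04, 3.98 to 9.51). Macrophages had 919.7 and 1529.7 CPM of Ccl8 and 1056 and 1085 CPM of Lgmn. After thinning, Lgmn was found in 3.28 and 17.6% of members and 81.0 and 84.9% of macrophages, and in Pi16-high cells in 4.86 and 5.63%. The summed macrophage list of the members had 123 and 40.8 CPM, and 117 of its LFD UMIs were Lyz2 in 1 cell. The part of free RNA in either gene was not tested.

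Several immune genes among the 15 lowest ratios had most of their LFD UMIs in a few cells. Lyz2 fell from 90.1 to 16.3 CPM (ratio 0.181, 0.114 to 0.277), and 117 of its 132 LFD UMIs lay in 1 cell. Cd74 fell from 54.0 to 9.41 CPM (ratio 0.174, 0.0932 to 0.305), with 88.6% of LFD UMIs in 3 cells, and the class II chains H2-Aa and H2-Ab1 had ratios of 0.104 (0.0365 to 0.242) and 0.134 (0.0511 to 0.298). Without the 3 cells richest in each gene the ratios were 1.84 for Lyz2, 1.12 for Cd74, 0.689 for H2-Aa and 0.735 for H2-Ab1. Cxcl2, a neutrophil attractant, fell from 100 to 24 UMIs, and 79 of the 100 lay in 1 cell (ratio without 3 cells 0.995). Without the member that Scrublet marked, the log2 ratios of Lyz2 and Cxcl2 were 0.65 and 0.05. Retnla, a secreted product of alternatively activated macrophages, fell from 106 UMIs in 27 cells to 12 in 12 cells (ratio 0.104, 0.0521 to 0.189), and 74 of the 106 lay in 1 cell. In macrophages it had 23099 and 8267 CPM, and without the marked member its log2 ratio was -1.56 in place of -3.27. The marker lists that move with these genes are the macrophage list (123 and 40.8 CPM) and that of dendritic and B cells (124 and 17.6 CPM), and apart from the values without single cells their part was not tested. Of the macrophage list, C1qa had 4 and 4 UMIs, C1qb 7 and 11 and C1qc 1 and 3 on LFD and HFD. The rule limited these genes, so their counts cannot show whether macrophage transcripts fell. The whole list had 180 and 65 UMIs, of which Lyz2 held 132 and 26.

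The list of interferon-induced and class I presentation genes had 0.311% (0.302 to 0.320%) of UMIs on LFD and 0.243% (0.236 to 0.251%) on HFD. Of 15 measured genes, 1 was over 1 (Psmb8, 1.19), 2 fell and 0 rose, with a median log2 ratio of -0.36. The share was also lower on HFD in Pi16-high cells (0.395 and 0.276%), macrophages (0.683 and 0.510%) and endothelial cells (1.03 and 0.716%). The shift was thus not particular to the members. Irf1 (ENSMUSG00000018899, chromosome 11, 53770014 to 53778374), the transcription factor first induced by interferon gamma, fell from 199 to 43.3 CPM (ratio 0.218, 0.165 to 0.284). After thinning it was found in 23.0 and 10.6% of members. It had 159.8 and 46.1 CPM in Pi16-high cells, 252 and 109 CPM in endothelial cells and 174 and 95.3 CPM in macrophages. Iigp1, an interferon-induced GTPase that guards against intracellular parasites, fell from 215 to 66.5 CPM (ratio 0.309, 0.246 to 0.386), and Ifi27l2a had 275 CPM on LFD and 144 CPM on HFD (ratio 0.523, 0.443 to 0.617). The class I heavy chains H2-K1 and H2-D1, near-identical in parts so that their split is uncertain, had ratios of 0.971 (0.876 to 1.08) and 0.965 (0.886 to 1.05), and their light chain B2m had 0.905 (0.819 to 1.001).

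The promoters of the 15 measured genes were searched on both strands for the interferon-stimulated response element (GAAANNGAAA) and for the gamma-activated site (TTCNNNGAA). RefSeq promoters on GRCm38.p6 were found for 11 of the 15, of which 5 held the first motif and 4 the second, against 3.49% and 8.47% of 27025 promoters. The match is a description of these letters and says nothing of binding. The stretches shown are those of Irf1, the fallen gene with a match, and of 3 genes that carry the response element, with the motif in capitals. That of Irf1 lies at chr11:53769914-53769942 on the plus strand, and those of Gbp7, Gbp2 and B2m at chr3:142530273-142530302, chr3:142620594-142620623 and chr2:122147538-122147567, all written as the plus strand. In B2m the motif reads on that strand, and in Gbp7 and Gbp2 the capitals are its reverse complement, with the motif on the minus strand. The ratios of Gbp7 and Gbp2, guanylate-binding proteins, were 0.606 (0.384 to 0.947) and 0.857 (0.549 to 1.33).
Irf1: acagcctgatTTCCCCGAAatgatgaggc
Gbp7: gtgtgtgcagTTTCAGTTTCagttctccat
Gbp2: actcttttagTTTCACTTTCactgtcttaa
B2m: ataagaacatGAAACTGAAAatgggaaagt

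Of the remaining genes among the 15 highest and 15 lowest, Fbln7, an adhesive member of the fibulin family, rose from 10.9 to 95.9 CPM (ratio 8.78, 5.24 to 15.7) and was detected in 12 LFD and 76 HFD cells. Clic6, of the chloride intracellular channel family, fell from 47 UMIs in 32 cells to 3 in 3 cells (ratio 0.0586, 0.0117 to 0.182). Prokr1, a receptor for prokineticins, fell from 33.5 to 6.90 CPM (ratio 0.206, 0.0966 to 0.402), and Nt5e, the surface enzyme that makes adenosine from AMP, fell from 30.05 to 6.27 CPM (ratio 0.209, 0.0936 to 0.421). Both were spread over many LFD cells, 41 and 36, against 10 HFD cells each. Arl4d, a small GTPase, fell from 36.2 to 8.78 CPM (ratio 0.243, 0.124 to 0.443), and Cpxm2, a member of the carboxypeptidase family, fell from 33.5 to 8.15 CPM (ratio 0.244, 0.121 to 0.456), with 73.5% of its LFD UMIs and 61.5% of its HFD UMIs in 3 cells. Under the filter of the study the log2 ratios of Clic6 and Cpxm2 were -1.85 and -0.85, against -4.09 and -2.04.

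Immediate early and stress genes, which also record tissue dissociation, had 3.03% (3.005 to 3.06%) of UMIs on LFD and 2.54% (2.52 to 2.57%) on HFD, with 6 of 26 over 1, 0 past 2-fold and a median log2 ratio of -0.27. Fos had 5183 CPM on LFD and 4022 CPM on HFD (ratio 0.776, 0.751 to 0.802), Egr1 had a ratio of 0.757 (0.728 to 0.788) and Junb one of 0.931 (0.899 to 0.965). Zfp36, which speeds decay of cytokine mRNAs, had 1087 CPM on LFD and 605 CPM on HFD (ratio 0.557, 0.513 to 0.603), while Nr4a2 and Egr2 had ratios of 1.88 (1.57 to 2.26) and 1.98 (1.48 to 2.67). The heat shock genes Hspa1a and Hspa1b are near-identical, and their separate ratios of 0.863 and 0.618 are uncertain. In macrophages this list took 2.21 and 1.41% of UMIs. Whether handling of the tissue differed between the libraries was not tested.

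Genes of cholesterol and lipid synthesis and transport had 0.149% (0.143 to 0.156%) of UMIs on LFD and 0.105% (0.0996 to 0.110%) on HFD, with 3 of 19 over 1, 0 risen, 1 fallen and a median log2 ratio of -0.41. Abca6, a transporter of the lipid-exporting ABCA family, fell from 105 to 47.0 CPM (ratio 0.447, 0.335 to 0.593), and its relative Abca8a had 568 CPM on LFD and 347 CPM on HFD (ratio 0.611, 0.548 to 0.681). Under the filter of the study their log2 ratios were -0.06 and 0.15, against -1.16 and -0.71. The cholesterol exporter Abca1 had a ratio of 0.663 (0.523 to 0.840). The desaturases Scd1 and Scd2 had 0.637 (0.449 to 0.899) and 0.658 (0.489 to 0.883). For the synthetic enzymes Hmgcs1, Sqle and Cyp51 the intervals of the ratio held 1, at 0.883, 0.753 and 1.32.

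Of the alternatives looked at for the named genes, the filter of the study kept the fewest of them past 2-fold. With the limits of the study, at most 2500 genes and under 5% mitochondrial UMIs, 52 LFD and 74 HFD members were left, and of 70 named genes past 2-fold that had a value, 38 were still past it. Among risen genes, the log2 ratio there was 0.96 for Ctsk, 0.61 for Ctgf, 0.47 for Tpm2 and 0.40 for Thy1, all below the limit, and 4.74 for Fbln7, 3.47 for Col8a1 and 1.74 for Tagln, all above it. Among fallen genes it was -0.86 for Timp3 and -0.00 for Lmod1, within 2-fold, and -3.85 for Cxcl10, -3.17 for Arl4d and -1.11 for Retnla, past it. Genes within 2-fold that turned direction were Plod2 at -0.02, Thbs2 at -0.34, Rspo3 at 0.27, Scd1 at 0.43, Il6 at 0.69 and the marker Dpep1 at 0.59. With cells thinned to 2000 UMIs, Ctgf stood at 0.36, Thy1 at 0.46, Vegfc at -1.995 and Ube2c at -0.12. Without the 3 cells richest in a gene, Ccl8 stood at 3.78, Igfbp3 at -3.24 and Sfrp4 at 1.05. These values rest on few UMIs. Ccl8 and Sfrp4 each had 9 LFD UMIs, with 66.7 and 55.6% in 3 cells, and Igfbp3 had 18 HFD UMIs, with 83.3% in 3 cells. The cause of these moves was not tested.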

How the data were processed

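The counts are UMIs per gene and barcode, deposited by the authors as filtered matrices made with Cell Ranger on mm10 from 1 LFD and 1 HFD library. No reads were processed again. Members were chosen by UMIs in barcodes with at least 200 genes, and the members and lists were chosen with earlier results of these data known. UMIs were summed over the members of a library and scaled to CPM, and genes with at least 50 UMIs in both libraries together were compared by ratio and exact 95% intervals, with no test, as each diet has 1 library. Genes named are the 15 highest and 15 lowest ratios past 2-fold, the 20 most abundant, the 10 highest and 10 lowest against Pi16-high cells after adding 20 CPM, the 10 leading genes of each cluster seen in at least 25% of its cells, the genes of the rule and markers, and genes of the lists of matrix, protease, contractile, adipogenic, progenitor, receptor, growth factor, TGF-beta, Wnt, detoxification, complement, acute phase, chemokine, interferon, immediate early, cell cycle, lipid, glycolysis and clock genes and of cell type markers. Mitochondrial, ribosomal protein, haemoglobin and Y-linked genes and Xist were left out of naming. Clustering used Seurat 5.3.0 (SeuratObject 5.2.0, Matrix 1.6.5, R 4.3.3) with anchors between libraries, 2000 variable genes, 40 principal components and resolution 0.9. Doublets were scored with Scrublet in scanpy 1.11.5 at an expected rate of 1% and kept. Shares of cells with a UMI were also taken after thinning each cell to 2000 UMIs. Alternatives were the filter of the study, other limits for members, edgeR 4.0.16 (TMM) and DESeq2 1.42.0 size factors, a denominator without mitochondrial and ribosomal protein genes, the mean CPM of cells, thinning, other minima of UMIs and other cluster settings. Coordinates came from GENCODE M21, which matched 27645 of 27998 gene IDs, and promoters from RefSeq on GRCm38.p6. Python 3.11.15, numpy 2.4.6, pandas 2.3.3, scipy 1.17.1, scikit-learn 1.9.0 and matplotlib 3.10.9 were used, and the ratios and intervals were tested on simulated data. Some genes of the lists are withheld and not reported here.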

Additional observations from a re-analysis of the deposited data

Results flagged for a closer look

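For 5 named genes past 2-fold in the members, the ratio of CPM, HFD over LFD, lay on opposite sides of 1 in the members and in Pi16-high cells of the same libraries with both intervals leaving out 1. The difference between the classes was not tested. For Cd74 it was 0.174 (0.0932 to 0.305) in the members and 27.8 (14.7 to 59.2) in Pi16-high cells. For Cxcl2 it was 0.220 (0.135 to 0.347) in the members and 1.77 (1.31 to 2.40) in Pi16-high cells. For H2-Aa it was 0.104 (0.0365 to 0.242) in the members and 31.1 (13.8 to 86.8) in Pi16-high cells, and for H2-Ab1 0.134 (0.0511 to 0.298) in the members and 26.8 (13.1 to 63.6) in Pi16-high cells. In these 4 genes, 88.6, 88.0, 92.5 and 89.6% of the LFD UMIs of members lay in 3 cells. In Pi16-high cells on HFD, 1 cell held 137 of 140 Cd74 UMIs, and the richest cell of each other gene held 37 of 85 Cxcl2, 92 of 94 H2-Aa and 104 of 108 H2-Ab1 UMIs. For Mgp the ratio was 3 (2.84 to 3.18) in the members and 0.762 (0.680 to 0.852) in Pi16-high cells, and 38.1% of its LFD UMIs lay in 3 cells.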

How the results depend on the processing

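No paired analysis was possible because each diet has 1 library. Members that passed the filter of the study were 4.92% of LFD and 6.62% of HFD barcodes with at least 200 genes, counted before that filter. The share of barcodes that are members was 16.4% on LFD with thresholds per 10000 UMIs, and 11.6% and 12.5% on LFD and HFD with 0 progenitor UMIs. The counts of genes at least 2-fold higher on HFD and of genes at least 2-fold lower on HFD were 41 and 27 with that filter, 46 and 41 with cells thinned to 2000 UMIs, 1658 and 2251 with no minimum of UMIs per gene, 27 and 28 with at least 200 UMIs per gene, 113 and 121 with TMM and 123 and 110 with DESeq2 size factors, and of the calls 60.3% were higher with the filter of the study against 44.1% without it. The signs of the 3 lists did not change. The log2 ratio of collagen UMIs, HFD over LFD, was 0.66 with the filter of the study, 0.94 under 10% mitochondrial UMIs, 0.93 with thresholds per 10000 UMIs, 0.93 with TMM, 0.96 with DESeq2 size factors, 0.85 as mean CPM of cells and 0.78 thinned. The log2 ratio of detoxification UMIs, HFD over LFD, was -0.40 with the filter of the study, -0.68 with thresholds per 10000 UMIs, -0.71 with 0 progenitor UMIs, -0.58 with TMM, -0.55 with DESeq2, -0.49 as mean CPM and -0.49 thinned. The log2 ratio of complement UMIs, HFD over LFD, was 0.034 with the filter of the study, 0.19 under 10% mitochondrial UMIs, 0.10 with thresholds per 10000 UMIs, 0.20 with DESeq2, 0.21 as mean CPM and 0.21 thinned. Clusters numbered 1 at resolution 0.4 and with the filter of the study, 11 at resolution 1.5, 5 with 20 principal components, 4 without anchors and 2 without Scrublet doublets.

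Genes past 2-fold that turned direction were few. With the filter of the study the log2 ratios were Cd74 0.15, Lyz2 1.32, Postn -0.17 and Stmn1 -0.26. With 0 progenitor UMIs they were Cd74 0.77, H2-Aa 0.39, Lyz2 0.90 and Sfrp4 -1.35. Without members that had Ptprc or 3 or more UMIs of Lyz2 and Cd74 they were Cd74 0.33, Cxcl2 0.11, H2-Aa 0.11 and Lyz2 0.96. Without Scrublet doublets they were Cxcl2 0.045 and Lyz2 0.65, and thinned Ube2c -0.12. Leaving out the 3 cells with the most UMIs of each gene, chosen after seeing the data, gave Cd74 0.17 and Lyz2 0.88. The cause was not tested. Of 416 named genes, the ratio lay within the counting interval of the report for 195 with the filter of the study, for 282 thinned and for 416 without mitochondrial and ribosomal protein genes in the denominator. Of named genes past 2-fold with a value, 38 of 70 were still past it with the filter of the study, 61 of 76 thinned, 69 of 76 as mean CPM and 64 of 71 without the 3 cells.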

Other observations

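Glycolysis and hypoxia genes of the members had 0.220% of UMIs on LFD and 0.225% on HFD, with 6 of 16 measured genes over 1, 0 past 2-fold and a median log2 ratio of -0.09. Aldoa, the aldolase of glycolysis, was the most abundant. Clock and glucocorticoid genes had 0.195% of UMIs on LFD and 0.158% on HFD, with 3 of 11 over 1, 0 past 2-fold and a median log2 ratio of -0.20. Hsd11b1, which regenerates active glucocorticoid inside cells, was the most abundant.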
